A study of Drosophila melanogaster with 40 samples.

Results

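The mitochondrial genome of Drosophila melanogaster gave 37 of the 17609 gene rows of the count table. They were taken as every row whose FlyBase identifier belongs to a symbol that starts with mt:, and they comprised 13 protein genes, 22 tRNA genes and 2 rRNA genes. A further annotated feature with that prefix, the control region mt:ori, was not analysed here. RNA of whole flies was counted in 40 libraries, in which the study compared genotype, age, recovery time and climbing after a heat shock. Wild-type flies and flies labelled insulin ablated, in which the insulin-producing cells had been removed, were each sampled young and old. The sources used here gave no strain, allele, driver or age in days. Heat-shocked flies were collected at 0, 1, 2, 4, 6 and 8 h. Wild-type heat-shocked flies were divided into climbers and non-climbers by a climbing test, whereas ablated flies were climbers only. A control library without heat shock, collected at 4 h and not assessed for behaviour, existed once for young and once for old flies of either genotype, 4 in all. Young and old wild-type flies gave 13 libraries each, and young and old ablated flies gave 7 each.

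The mitochondrial genome encodes core subunits of the respiratory chain and of ATP synthase, together with the rRNAs and tRNAs that the mitochondrial ribosome needs to translate them. Both strands are transcribed into long precursors, and tRNAs that lie between the other genes mark where many of these precursors are cut. Messenger RNAs and rRNAs of animal mitochondria can carry poly(A) tails, whereas a mature tRNA ends in CCA. Libraries were prepared with Lexogen's Quant 3' mRNA-Seq kit, in which priming takes place on poly(A) and a read marks the end of a transcript. A count at a tRNA gene therefore cannot be told apart from a count of a longer RNA that spans the gene. The same limit holds for a protein gene inside a longer RNA. The strand setting of the counting was not given in the sources used here.

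Conditions were sequenced once each, with no replicate library. An effect was therefore judged by the deviations of single libraries from an additive model of stratum (genotype with age), state (control or hour) and climbing, with 28 residual degrees of freedom, and the p-values measure only that spread. Adjusted p-values are those of the edgeR quasi-likelihood test with Benjamini-Hochberg adjustment over the 11449 genes that passed the count filter, and a gene was called at an adjusted p under 0.05. Levels are given in CPM, counts per 1e+06 counts of a library scaled by TMM, and changes as fitted log2 fold changes with their standard error. Library totals ran from 11714961 to 48747409 counts. As a check of the ablation, the transcripts of Ilp2, Ilp3 and Ilp5, which insulin-producing cells make, added up to 1.06 to 4.01 CPM in wild-type libraries and 0 to 1.01 CPM in ablated ones. Of 13 inducible heat shock genes, the summed level was 2984 CPM in the library labelled ablated young 6 h and 4587 CPM in the library labelled ablated young control, while the other 3 controls lay between 2771 and 3944 CPM and the other 6 h libraries between 6006 and 7177 CPM. In that measure the 6 h library goes against its label, as it lay within the range of the other controls. The control departs less, as it lay above the other controls but below the other 6 h libraries, and inside the 8 h range of 4245 to 7234 CPM. Both are treated as doubtful, and results that rest on them are also given without them. The 5 batches of the labels followed genotype, age and hour, so that batch and these factors are in large part inseparable.

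The 3 classes differed widely in how many counts they held. The rRNA genes held 6.29% of all counts, the protein genes 3.00% and the tRNA genes 0.0902%. Within the rRNA class, mt:lrRNA, the RNA of the large ribosomal subunit, held 93.5% of the counts. Among the tRNA genes, mt:tRNA:Ser-GCT, mt:tRNA:Arg-TCG and mt:tRNA:Gln-TTG held 41.1%, 20.5% and 10.8% of the class, where the letters after the hyphen are the anticodon. The genes lay on the 2 strands of the mitochondrial chromosome of dm6, 23 on the plus strand and 14 on the minus strand, and the tRNA genes were 62 to 72 bases long. Of neighbouring genes, 4 pairs overlapped. The longest overlap, 8 bases, joined mt:tRNA:Trp-TCA (positions 1264 to 1329, plus strand) to mt:tRNA:Cys-GCA (positions 1322 to 1383, minus strand), and mt:ATPase8 shared 7 bases with mt:ATPase6. In such stretches counts could not be assigned to 1 gene with certainty. All members but mt:tRNA:Trp-TCA passed the filter. That gene had 73 counts over the 40 libraries and none in 20 of them, and it was not tested.

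**Figure D1:**
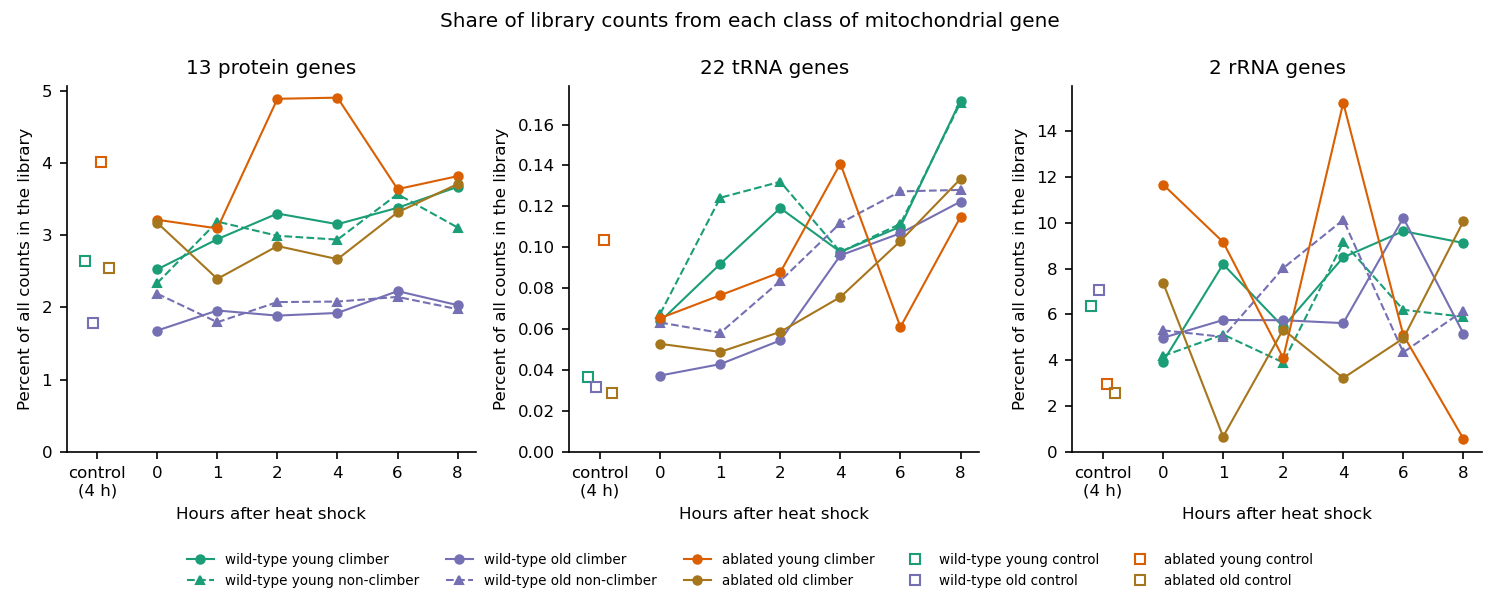
Share of all counts of a library, in percent, that fell on the 13 protein genes, the 22 tRNA genes and the 2 rRNA genes, against hours after heat shock. Each point is 1 library, lines join climbers (solid) or non-climbers (dashed) of 1 genotype and age, and open squares are the controls. The tRNA share was 0.0372% to 0.0674% at 0 h and 0.115% to 0.172% at 8 h, whereas the rRNA share went from 0.569% to 15.2% with no common course.

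The tRNA share of a library was 0.0364% in the wild-type young control, 0.0318% in the wild-type old control and 0.0288% in the ablated old control, but 0.104% in the ablated library labelled young control. Directly after the heat shock, at 0 h, it ran from 0.0372% to 0.0674% with a median of 0.0634%, and at 8 h from 0.115% to 0.172% with a median of 0.131%. The 8 h libraries thus all lay above the 0 h libraries. Set against the protein genes of the same libraries, there were 16.6 to 28.9 tRNA counts per 1000 protein-gene counts at 0 h and 30.1 to 64.8 at 8 h. The protein share overlapped between these hours, with 1.68% to 3.21% at 0 h and 1.97% to 3.82% at 8 h. In bulk RNA, fewer cells or mitochondria and less RNA in each cannot be told apart.

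Between 0 h and 8 h of recovery, most tRNA genes rose in assigned transcripts, whereas 1 protein gene and no rRNA gene passed the test. No control was collected at 0 h or 8 h, so recovery and collection time cannot be told apart here. Of all genes tested, 10.5% were called between these hours, 6.46% higher and 4.04% lower at 8 h. Among the mitochondrial genes, 14 of 21 tRNA genes and 1 of 13 protein genes were called, all higher at 8 h. Neither of the 2 rRNA genes passed in edgeR or DESeq2, and neither had an unadjusted p under 0.05. The median log2 fold change was 1.37 over the tested tRNA genes, 0.27 over the protein genes and 0.24 over the rRNA genes, beside -0.06 over all genes tested. In 9 of the 21 tRNA genes every 8 h library exceeded every 0 h library, which held for 1.10% of all genes. The 9 were those of Met, Cys, Tyr, Lys, Asp, Arg, Asn, Glu and the Ser gene with anticodon GCT.

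**Figure D2:**
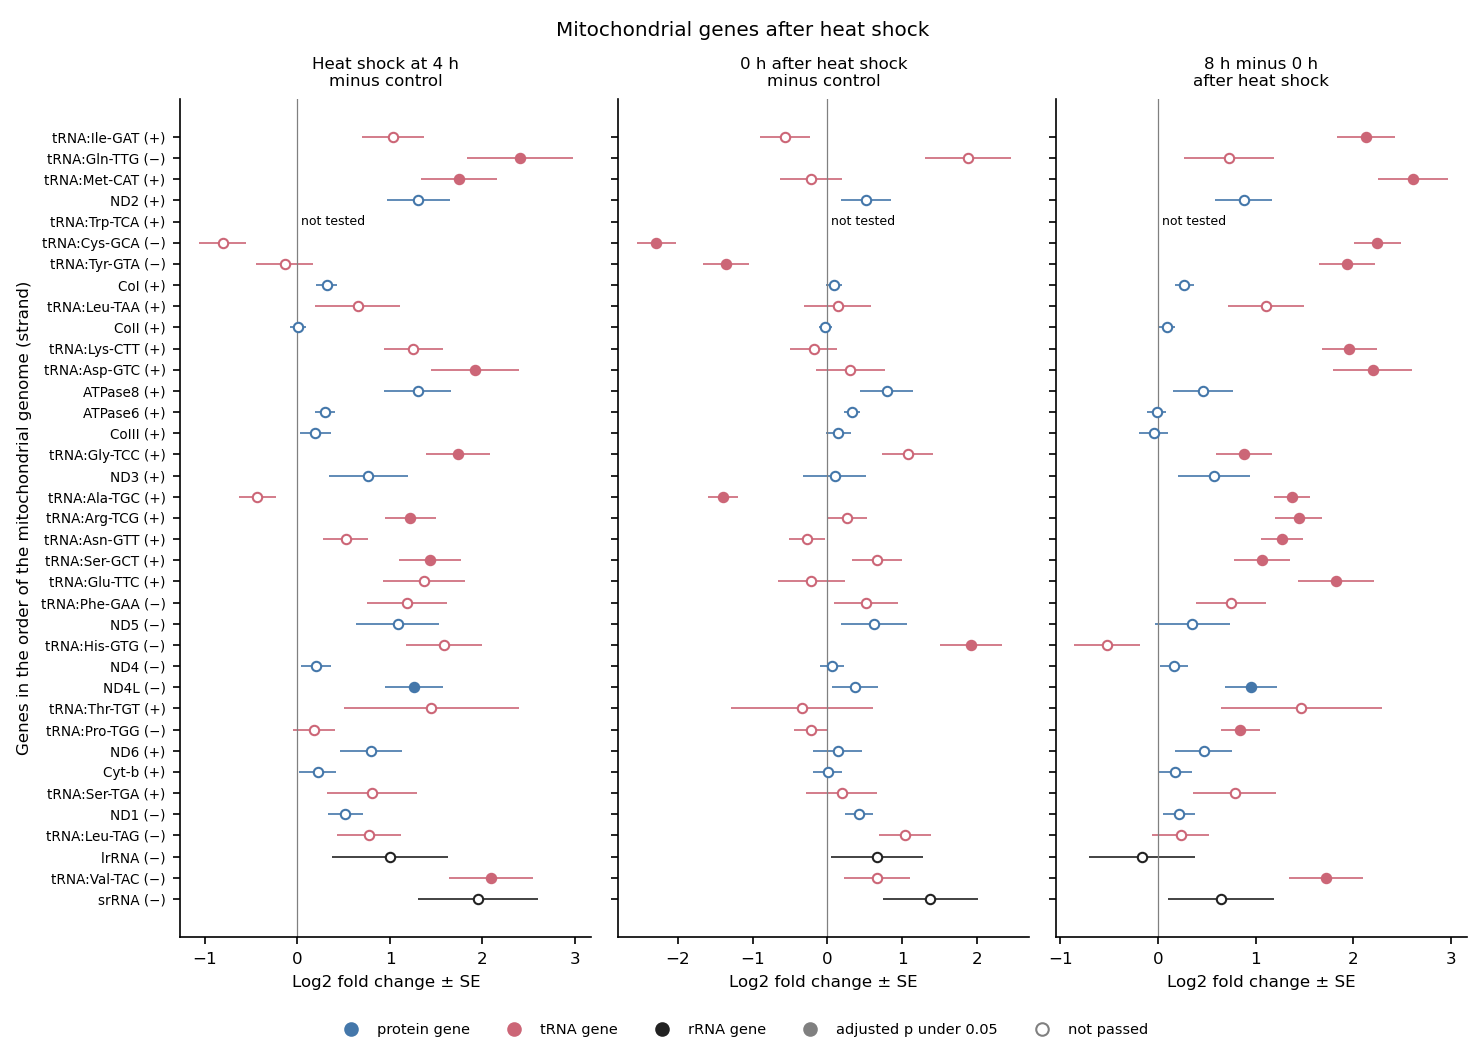
Fitted log2 fold change with its standard error for each mitochondrial gene, in genome order with its strand, for heat shock at 4 h against control, 0 h against control and 8 h against 0 h. Filled points passed an adjusted p of 0.05. Against control, mt:tRNA:Gln-TTG was the highest at 4 h (2.41) and mt:tRNA:Cys-GCA the lowest at 0 h (-2.29), and 14 tRNA genes were higher at 8 h than at 0 h.

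The largest of these rises was that of mt:tRNA:Met-CAT (positions 171 to 239, plus strand), whose tRNA reads the start codon. In young wild-type climbers its level was 2.73, 8.16, 10.2, 11.2, 16.2 and 23.1 CPM at 0, 1, 2, 4, 6 and 8 h, and in the non-climbers 4.78, 5.76, 11.9, 12.1, 10.9 and 24.9 CPM. Old wild-type climbers had 2.51, 7.24, 10.9, 22.1, 26.0 and 32.5 CPM at the same hours, and their non-climbers 5.26, 7.75, 14.5, 24.3, 11.2 and 35.02 CPM. The 8 h library was the highest of its series in all 4 wild-type series. Among ablated climbers the levels were 4.39, 8.48, 11.8, 21.9, 5.44 and 18.2 CPM in young flies and 3.81, 5.21, 7.54, 7.46, 8.00 and 14.3 CPM in old flies. The controls had 1.63 CPM (wild-type young), 2.61 CPM (wild-type old), 13.7 CPM (labelled ablated young) and 1.64 CPM (ablated old). The fitted change from 0 h to 8 h was 2.61 ± 0.36 (SE), with an edgeR adjusted p of 7.66e-06, and all 6 series were higher at 8 h.

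A second course was that of mt:tRNA:Cys-GCA, which was low directly after the heat shock and came back towards the control level. Its controls, collected at 4 h, had 56.0 CPM in wild-type young and 54.6 CPM in wild-type old flies. Those of ablated flies had 42.2 CPM in old flies and 76.4 CPM in the library labelled ablated young. At 0 h the 6 libraries had 7.06 to 17.5 CPM, all below all controls. Young wild-type climbers went through 8.91, 12.5, 15.0, 31.1, 33.9 and 44.0 CPM over the 6 hours, and non-climbers through 7.06, 13.4, 19.6, 25.0, 41.5 and 32.7 CPM. In old wild-type flies the climbers had 12.7, 39.9, 43.1, 50.9, 36.4 and 69.6 CPM and the non-climbers 13.5, 11.7, 26.3, 34.0, 31.2 and 59.5 CPM. Thus the old climbers reached 39.9 CPM at 1 h, and the non-climber library of that hour, at 11.7 CPM, belonged to another batch. The ablated series had 17.5, 19.5, 14.4, 23.7, 77.0 and 83.8 CPM in young flies and 8.66, 14.3, 16.3, 24.02, 35.5 and 38.3 CPM in old flies. From 0 h to 8 h the gene rose by 2.24 ± 0.24 on the log2 scale (edgeR adjusted p = 9.75e-08), and at 8 h its difference from control was -0.05 ± 0.26 (edgeR adjusted p = 0.97).

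The remaining tRNA genes that rose from 0 h to 8 h did so by 0.84 (mt:tRNA:Pro-TGG) to 2.20 (mt:tRNA:Asp-GTC). They included mt:tRNA:Ile-GAT at 2.13 ± 0.30, mt:tRNA:Lys-CTT at 1.96 ± 0.28 and mt:tRNA:Tyr-GTA at 1.94 ± 0.28. The 2 most abundant of the class rose as well. The level of mt:tRNA:Arg-TCG was 70.2 to 158 CPM at 0 h and 236 to 413 CPM at 8 h, a fitted rise of 1.44 ± 0.24 (edgeR adjusted p = 0.000116). For mt:tRNA:Ser-GCT it was 142 to 336 CPM at 0 h and 400.2 to 790.2 CPM at 8 h, a fitted rise of 1.07 ± 0.29 (edgeR adjusted p = 0.013). Without mt:tRNA:Ser-GCT, mt:tRNA:Arg-TCG and mt:tRNA:Gln-TTG, the summed level of the other tRNA genes was 119.9 to 224 CPM at 0 h and 308 to 419 CPM at 8 h.

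Not all tRNA genes shared this course. For mt:tRNA:His-GTG the level was 3.99 to 9.49 CPM at 0 h and 2.17 to 6.71 CPM at 8 h, and its fitted change was -0.52 ± 0.34 (edgeR adjusted p = 0.34). That of mt:tRNA:Leu-TAG was 34.3 to 74.7 CPM at 0 h and 48.3 to 81.8 CPM at 8 h, a fitted difference of 0.23 ± 0.29 (edgeR adjusted p = 0.67). Their ranges at the 2 hours overlapped, and mt:tRNA:Gln-TTG (0.73 ± 0.46) did not pass either. The only 0 h and 8 h libraries of the same genotype and age that shared a batch were those of ablated old climbers, in which mt:tRNA:Cys-GCA was higher at 8 h by 2.02, mt:tRNA:Val-TAC by 2.28 and mt:tRNA:Met-CAT by 1.67 on the log2 scale. With batch as a covariate, 14 of the 22 tRNA genes tested in that fit were called higher at 8 h than at 0 h and no protein or rRNA gene was called, while the share of all genes called fell to 2.38%. A list of 13 ovary and follicle cell genes was also lower at 8 h, with a summed level of 1229 to 4442 CPM against 4517 to 12298 CPM at 0 h and 5 of its 13 genes called lower. Its part in the result was not tested.

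Right after the heat shock, 3 tRNA genes were below control and 1 was above it. The controls were collected at 4 h, so heat shock and collection time cannot be told apart in this comparison. At 0 h against control 3.87% of all genes tested were called, 1.73% higher and 2.14% lower. The genes that fell were mt:tRNA:Cys-GCA at -2.29 ± 0.26 (edgeR adjusted p = 7.01e-07), mt:tRNA:Ala-TGC at -1.39 ± 0.20 (edgeR adjusted p = 2.07e-05) and mt:tRNA:Tyr-GTA at -1.36 ± 0.31 (edgeR adjusted p = 0.0079). The genes of Cys and Tyr are neighbours on the minus strand, and that of Ala (positions 5983 to 6047) lies on the plus strand. The gene that rose was mt:tRNA:His-GTG, by 1.92 ± 0.41 (edgeR adjusted p = 0.0049). None of the 13 protein genes and neither rRNA gene passed in edgeR or DESeq2; 3 protein genes and 1 rRNA gene had an unadjusted p under 0.05. Of the protein genes, mt:ATPase6 (0.33 ± 0.11, edgeR adjusted p = 0.078) and mt:ND1 (0.42 ± 0.19, edgeR adjusted p = 0.2) had the smallest p, and mt:lrRNA and mt:srRNA differed by 0.67 ± 0.62 and 1.37 ± 0.64. In wild type, the 0 h libraries and their controls were in different batches. With batch as a covariate, 2 tRNA genes were called lower and 1 higher at 0 h, among 3.83% of all genes.

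Levels of mt:tRNA:Ala-TGC were 24.8 CPM in the wild-type young control, 22.7 CPM in the wild-type old control, 26.0 CPM in the ablated old control and 36.3 CPM in the control library labelled ablated young. At 0 h it was 7.23 to 9.42 CPM in 5 libraries and 17.6 CPM in ablated young climbers, all below the controls. From 1 h to 6 h young wild-type climbers had 11.4, 10.1, 14.2 and 16.2 CPM and non-climbers 11.7, 11.9, 13.4 and 16.7 CPM, all below the controls. Old wild-type climbers had 12.8, 19.9, 26.7 and 16.9 CPM and non-climbers 10.004, 16.6, 21.8 and 13.9 CPM at these hours. Ablated climbers had 12.6, 12.9, 24.7 and 32.8 CPM when young and 15.3, 12.5, 14.3 and 18.1 CPM when old. By 8 h the climbers had 26.8 CPM (wild-type young), 22.9 CPM (wild-type old), 47.6 CPM (ablated young) and 20.0 CPM (ablated old), and the non-climbers 14.9 CPM (wild-type young) and 24.1 CPM (wild-type old). The 8 h libraries of young wild-type non-climbers and of ablated old climbers were still below all controls, and the others lay within or above the range of the controls. Of mt:tRNA:Tyr-GTA, the 4 controls had 8.50, 10.4, 7.39 and 2.62 CPM in wild-type young, wild-type old, ablated young and ablated old flies. At 0 h wild-type young flies had 1.67 CPM in climbers and 2.00 CPM in non-climbers, wild-type old flies 6.21 and 5.07 CPM, ablated young flies 4.35 CPM and ablated old flies 0.852 CPM. Each 0 h library was below the control of its own genotype and age, although the groups as wholes overlapped. From 1 h to 8 h the gene had 3.73, 2.96, 5.57, 5.20 and 9.37 CPM in young wild-type climbers and 6.68, 5.16, 2.50, 5.58 and 7.88 CPM in their non-climbers. Old wild-type non-climbers had 4.82, 12.2, 16.7, 14.1 and 21.2 CPM, and ablated young climbers 3.78, 2.37, 4.63, 8.80 and 9.35 CPM. In each of these 4 groups the 8 h library was the highest of the heat-shocked series.

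The 4 controls of the 0 h comparison are also those of the 4 h comparison. At 4 h after heat shock, where control and heat-shocked flies were collected at the same hour, 0.769% of all genes tested were called, 0.620% higher and 0.148% lower. Among the mitochondrial genes, 7 of 21 tRNA genes and 1 of 13 protein genes were called, all higher after heat shock. Neither of the 2 rRNA genes was called by edgeR, where 1 had an unadjusted p under 0.05, and DESeq2 called 1 of them higher. The median log2 fold change was 1.22 for tRNA genes, 0.52 for protein genes and 1.48 for rRNA genes, beside -0.00 over all genes tested.

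The largest rise was that of mt:tRNA:Gln-TTG (positions 97 to 165, minus strand). Its controls had 7.38 CPM (wild-type young), 11.6 CPM (wild-type old), 10.9 CPM (ablated old) and 57.2 CPM (labelled ablated young). At 4 h after heat shock the level was 123 and 94.7 CPM in young wild-type climbers and non-climbers, 80.4 and 107 CPM in old wild-type climbers and non-climbers, 204 CPM in ablated young climbers and 103 CPM in ablated old climbers. All 6 lay above all 4 controls, which also held for the genes of Asp and Gly and for 1.03% of all genes. For mt:tRNA:Gln-TTG the log2 difference from the control of the same genotype and age was 1.82 in the ablated young pair and 2.696 to 3.89 in the other 5 pairs, as differences of log2(CPM + 1). The gene was already high at 0 h, with 95.4 and 126 CPM in young wild-type climbers and non-climbers, 39.4 and 85.9 CPM in the old, 73.6 CPM in ablated young and 101 CPM in ablated old climbers. In the library labelled ablated young 6 h it was 14.9 CPM, the lowest of all 36 heat-shocked libraries, and the next lowest had 31.0 CPM. The fitted rise at 4 h was 2.41 ± 0.57 with an edgeR adjusted p of 0.041. It was 3.43 ± 0.50 with an edgeR adjusted p of 0.000118 without the 2 doubtful ablated young libraries.

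**Figure D3:**
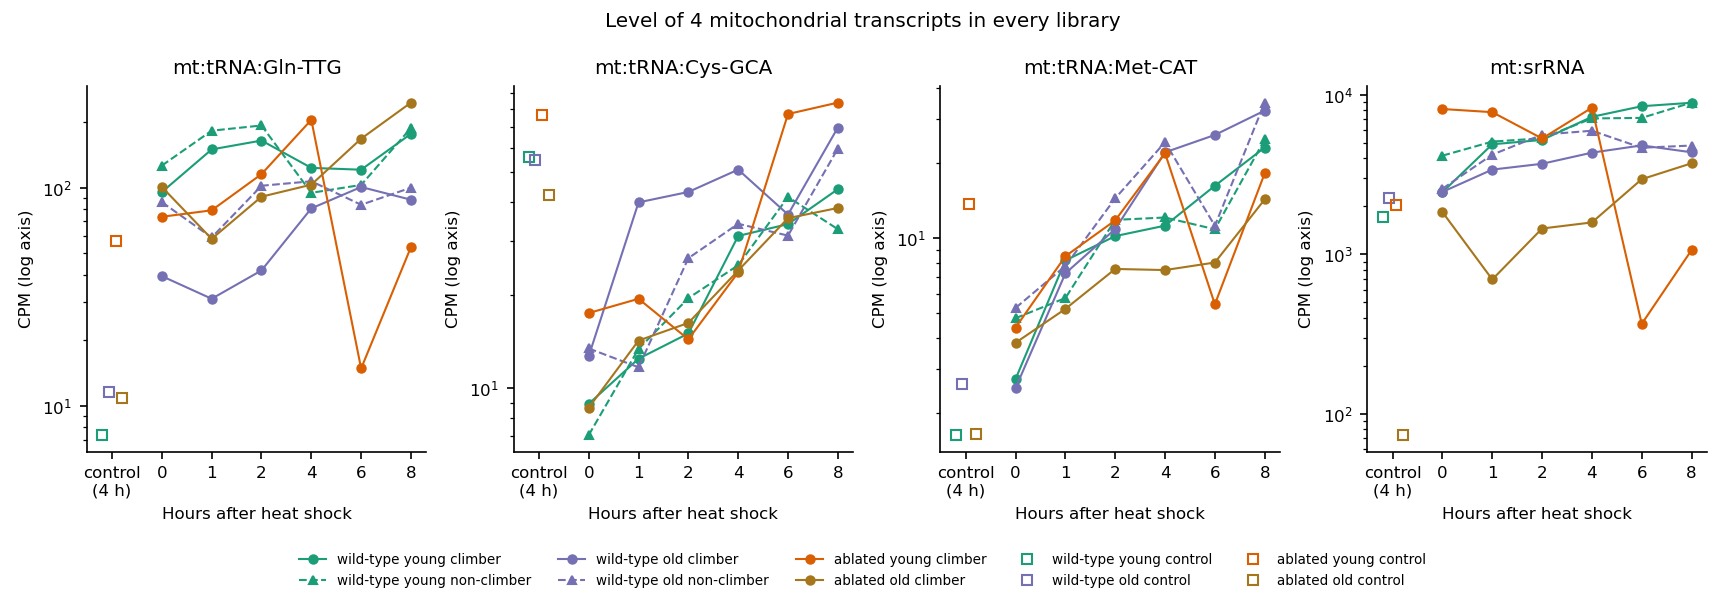
Level in CPM (log axis) of mt:tRNA:Gln-TTG, mt:tRNA:Cys-GCA, mt:tRNA:Met-CAT and mt:srRNA in each of the 40 libraries against hours after heat shock, with the controls as open squares; lines join libraries of 1 genotype, age and behaviour. The levels of mt:tRNA:Gln-TTG were 7.38 to 11.6 CPM in 3 controls, and mt:tRNA:Cys-GCA was 7.06 to 17.5 CPM at 0 h against 42.2 to 76.4 CPM in controls.

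Also called higher at 4 h were mt:tRNA:Val-TAC at 2.09 ± 0.45, mt:tRNA:Asp-GTC at 1.92 ± 0.47, mt:tRNA:Met-CAT at 1.75 ± 0.41, mt:tRNA:Gly-TCC at 1.74 ± 0.35, mt:tRNA:Ser-GCT at 1.43 ± 0.34 and mt:tRNA:Arg-TCG at 1.22 ± 0.28. The level of mt:tRNA:Val-TAC, whose gene lies between the 2 rRNA genes, was 2.56, 2.45 and 1.24 CPM in the wild-type young, wild-type old and ablated old controls and 8.74 CPM in the library labelled ablated young control. After 4 h it was 11.6 and 15.3 CPM in young wild-type climbers and non-climbers, 27.5 and 39.97 CPM in the old, 23.1 CPM in ablated young and 8.53 CPM in ablated old climbers. The ablated old library was thus below the control labelled ablated young but above its own control. Within 1 batch, the log2 difference from control was 3.04 and 3.57 in old wild-type climbers and non-climbers, 1.31 in ablated young and 2.09 in ablated old climbers. Of the protein genes, mt:ND4L, a subunit of NADH dehydrogenase (complex I), rose by 1.26 ± 0.31 (edgeR adjusted p = 0.044).

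How many mitochondrial genes were called at 4 h changed with single libraries and hours. Leaving out the library labelled ablated young control, 16 mitochondrial genes were called, beside 2.42% of all genes. Leaving out that library and the library labelled ablated young 6 h, 18 were called, 13 of them tRNA genes and 5 protein genes, beside 3.33% of all genes. Leaving out the wild-type young, the wild-type old or the ablated old control left 0 called by edgeR, with 20, 23 and 20 at an unadjusted p under 0.05. The share of all genes under that unadjusted p in these fits is not given here. Without the 0 h or the 2 h libraries 1 was called, and without the 1 h libraries 3. The share of all genes called in the fits without a control of these 3 or without an hour is not given here. A fit with batch as a covariate called 11, beside 1.76% of all genes. Without the 2 doubtful libraries, mt:tRNA:Gln-TTG, mt:tRNA:Arg-TCG, mt:tRNA:Ser-GCT and mt:tRNA:Val-TAC were higher in all 35 heat-shocked libraries than in all 3 controls, which held for 0.201% of all genes tested. At 0 h, leaving out both libraries gave 10 called mitochondrial genes in place of 4, beside 3.03% of all genes. The added genes included mt:tRNA:Gln-TTG at 2.89 ± 0.48, and the same 3 tRNA genes, those of Cys, Ala and Tyr, were lower.

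Of the protein genes, only mt:ND4L was called at 4 h against control or at 8 h against 0 h in the fit of all libraries. It had 12.9, 15.8 and 13.2 CPM in the wild-type young, wild-type old and ablated old controls and 47.5 CPM in the library labelled ablated young control. Young wild-type climbers had 22.6, 32.2, 40.4, 55.0, 61.8 and 61.4 CPM over the 6 hours, and non-climbers 25.5, 41.5, 47.0, 47.1, 54.7 and 63.2 CPM. For old wild-type climbers the values were 14.6, 17.9, 22.5, 27.6, 31.2 and 35.7 CPM, and for non-climbers 20.7, 19.9, 29.1, 35.2, 27.99 and 41.1 CPM. These 4 series were higher at 8 h than at 0 h. Ablated old climbers went from 29.1 to 51.9 CPM and ablated young climbers from 49.4 to 37.6 CPM, with 125 CPM at 4 h and 22.05 CPM at 6 h. The fitted change from 0 h to 8 h was 0.95 ± 0.27 (edgeR adjusted p = 0.017), and mt:ND4L, which overlaps mt:ND4 by 1 base on the same strand, had no called change in mt:ND4 beside it (0.17 ± 0.14, edgeR adjusted p = 0.5). Of the protein-gene counts, mt:ND4L held 0.131% and mt:ND4 4.79%. Whether counts at mt:ND4L came from its own mRNA or from a longer RNA that spans it was not tested.

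For mt:CoI, the catalytic subunit of cytochrome c oxidase (complex IV), the change from 0 h to 8 h was 0.27 ± 0.10 (edgeR adjusted p = 0.064), and for mt:CoII, another core subunit of that complex, 0.09 ± 0.08. The mt:ATPase6 subunit of ATP synthase differed by -0.02 ± 0.10 and mt:Cyt-b, of complex III, by 0.17 ± 0.17. These 4 genes had residual standard deviations of 0.14 to 0.31 on the log2 scale around the fitted terms, against a median of 0.42 over the tRNA genes and 0.26 over all genes tested. Sizes of change could thus be fixed more closely for these protein genes than for the tRNA genes.

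The rRNA genes scattered the most, with residual standard deviations of 1.05 for mt:lrRNA and 1.09 for mt:srRNA, the RNA of the small ribosomal subunit. In wild-type flies mt:srRNA had 1707 CPM in the young control and 2264 CPM in the old control. Young wild-type climbers had 2451, 4893, 5210.1, 7273, 8476 and 8913 CPM over the 6 hours, and non-climbers 4152, 5084, 5337, 7106, 7163 and 8929.7 CPM. Old wild-type climbers had 2460.4, 3395, 3692, 4336, 4814 and 4358 CPM, and non-climbers 2576, 4212, 5622, 5950.4, 4652 and 4805 CPM. In both ages every heat-shocked wild-type library was above the only control of its age. The share of all genes with this pattern is not given here. Young libraries of 0 h to 4 h, and old ones of 0 h and 8 h, were in other batches than their control. Ablated flies covered a wider range, with 8143, 7779, 5319.6, 8296, 366 and 1061 CPM in young climbers and 1837, 694, 1449.6, 1583, 2954 and 3718 CPM in old climbers. Their controls had 2042 CPM in the library labelled young and 73.4 CPM in the old. The fitted difference at 4 h was 1.96 ± 0.65 with an edgeR adjusted p of 0.17, and the fitted change from 0 h to 8 h was 0.65 ± 0.54 with an edgeR adjusted p of 0.49.

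No common course over hours was seen for mt:lrRNA. Its level was 38678, 84068, 51801, 82759, 90480.2 and 84446 CPM in young wild-type climbers and 39909, 47988, 34382, 88216, 54967 and 51655 CPM in the non-climbers. Old heat-shocked wild-type flies ranged from 43603 to 95188 CPM in climbers and from 35637 to 96854 CPM in non-climbers. The young and old controls, with 60554 and 64504 CPM, lay inside these ranges. Ablated flies covered 4323 CPM (8 h) to 155846 CPM (4 h) in young climbers and 5243 CPM (1 h) to 93203 CPM (8 h) in old climbers, and their controls had 26911 CPM in the library labelled young and 22829 CPM in the old. As mt:lrRNA held so large and variable a share, the fit was repeated with libraries scaled on genes outside the mitochondrial genome. It called 8 mitochondrial genes at 4 h and 16 from 0 h to 8 h, in place of 8 and 15.

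Across the 40 libraries, as a description, the 78 pairs of protein genes had Pearson correlations of log2 level with a median of 0.76, from 0.33 to 0.97. The 231 pairs of tRNA genes had a median of 0.42, from -0.37 to 0.96, and the 286 pairs of a tRNA with a protein gene had a median of 0.29. The libraries share genotype, age, hour and batch, which all enter these values.

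In old wild-type flies most mitochondrial mRNAs were lower than in young ones, while the tRNA genes that passed the test went in both directions. Of all genes tested, 23.5% were called by age in wild type, 11.8% higher and 11.7% lower in old flies. Among the mitochondrial genes, 9 of 13 protein genes were lower, and of 21 tRNA genes 4 were higher and 5 lower. Neither rRNA gene passed in edgeR or DESeq2, and neither had an unadjusted p under 0.05. For mt:CoI the 13 young libraries ranged from 5673 to 9066 CPM with a median of 7819.9 CPM, and the 13 old libraries from 4004 to 5087 CPM with a median of 4636 CPM. The ages did not overlap, and the same held for mt:CoII, mt:CoIII, mt:ATPase6 and mt:ND4, that is for 5 of 13 protein genes. Of all genes tested, 0.996% were lower in every old than in every young library and 2.18% were higher. The fitted change of mt:CoI was -0.73 ± 0.09 (edgeR adjusted p = 2.17e-07).

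The largest falls among the protein genes were those of mt:ATPase8 at -1.14 ± 0.29, mt:ND4 at -0.96 ± 0.13, mt:Cyt-b at -0.92 ± 0.16 and mt:ATPase6 at -0.87 ± 0.09. Transcripts of mt:ND4, of complex I, were at 1200.4 to 1976 CPM in young libraries (median 1590.2 CPM) and 693 to 1058 CPM in old libraries (median 839 CPM). For mt:ATPase8 the ranges overlapped, with 123 to 595 CPM in young and 108 to 334 CPM in old libraries. It held 1.02% of the protein-gene counts, beside 22.2% for mt:ATPase6, with which it overlaps. Whether its counts came from a longer RNA that spans it was not tested. The 4 protein genes that did not pass, mt:ND2, mt:ND3, mt:ND5 and mt:ND6, are all of complex I and had fitted changes of -0.25 to -0.95.

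Among tRNA genes, mt:tRNA:Ile-GAT, the first gene of the annotated chromosome (positions 1 to 65), was higher in old wild-type flies. Its control had 1.63 CPM in young and 2.71 CPM in old flies. Young climbers had 0.501, 1.40, 2.48, 2.59, 4.45 and 6.53 CPM over the 6 hours and old climbers 3.94, 3.54, 6.69, 14.6, 12.3 and 19.2 CPM. Young non-climbers had 1.67, 2.85, 2.01, 4.62, 5.23 and 6.04 CPM and old non-climbers 4.24, 5.59, 10.1, 13.5, 14.1 and 22.4 CPM. The old library was the higher in all 13 pairs of the same hour and behaviour, and the fitted rise was 1.68 ± 0.27 (edgeR adjusted p = 2.04e-05). Also higher were mt:tRNA:Phe-GAA at 1.37 ± 0.34, mt:tRNA:Tyr-GTA at 1.14 ± 0.26 and mt:tRNA:Cys-GCA at 0.79 ± 0.22. Of the 5 lower tRNA genes, the largest falls were those of mt:tRNA:Gly-TCC at -1.14 ± 0.27, mt:tRNA:Lys-CTT at -0.97 ± 0.25, mt:tRNA:Ser-GCT at -0.93 ± 0.27 and mt:tRNA:His-GTG at -0.87 ± 0.32.

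No pair of young and old wild-type libraries of the same hour and behaviour was in 1 batch, so no within-batch value can be given. With batch as a covariate only mt:ATPase6 of the mitochondrial genes was called (-0.84 ± 0.17, edgeR adjusted p = 0.012), as the share of all genes called fell to 0.614%. In that fit mt:CoI differed by -0.63 ± 0.18 and mt:ND4 by -0.78 ± 0.24. The summed level of 13 flight muscle genes was 1711 to 3987 CPM in young (median 2317 CPM) and 1213 to 5260.3 CPM in old wild-type libraries (median 1550.1 CPM), with 5 of the 13 genes called lower. The summed level of small nucleolar RNAs, nuclear transcripts with no poly(A) tail when mature, was 124 to 177 CPM in young and 201 to 309.6 CPM in old wild-type libraries. The part of either in the age differences was not tested.

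Among ablated flies every mitochondrial gene called by age in the fit without a batch term was lower in old flies. With batch as a covariate, 1 protein gene and 1 rRNA gene were called higher and 2 tRNA genes lower. Of the 7 young libraries, 6 were in another batch than the old ones. By age in ablated flies 37.0% of all genes tested were called, 15.7% higher and 21.3% lower in old flies. Among the mitochondrial genes 7 of 13 protein genes, 13 of 21 tRNA genes and 1 of 2 rRNA genes were called. The level of mt:CoI was 8646 to 14301 CPM in the 7 young libraries (median 11063 CPM) and 5793 to 8692 CPM in the 7 old libraries (median 7369 CPM). These ranges overlapped by a little, the old library was the lower in 7 of 7 pairs of the same state, and the fitted change was -0.62 ± 0.09 (edgeR adjusted p = 1.12e-06). The other protein genes with the largest falls were mt:ND4L at -0.96 ± 0.25, mt:ND4 at -0.79 ± 0.13 and mt:Cyt-b at -0.77 ± 0.16. Among the tRNA genes the largest falls were those of mt:tRNA:His-GTG at -1.49 ± 0.32, mt:tRNA:Glu-TTC at -1.36 ± 0.36, mt:tRNA:Ser-TGA at -1.26 ± 0.39 and mt:tRNA:Met-CAT at -1.01 ± 0.33.

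The fall of mt:srRNA in old ablated flies was -1.74 ± 0.53 (edgeR adjusted p = 0.01), while mt:lrRNA differed by -0.55 ± 0.51 (edgeR adjusted p = 0.43). With batch as a covariate the 2 changed to 1.37 and 3.81, mt:ND4L to 0.36, mt:tRNA:Ile-GAT to 0.17 and mt:CoIII to 0.80. In that fit 4 mitochondrial genes were called, among 7.56% of all genes, 1 protein gene and 1 rRNA gene higher and 2 tRNA genes lower in old flies. The library of ablated young climbers at 8 h, with the lowest mt:lrRNA level of all, was the only young ablated library that shared a batch with the old ablated ones. In that within-batch pair, old minus young at 8 h, mt:CoI differed by -0.43 and mt:CoII by -0.37 on the log2(CPM + 1) scale. The direction of the pooled fit was not found there for mt:ND4 (0.09), mt:Cyt-b (0.01), mt:ND4L (0.46), mt:CoIII (1.02), mt:srRNA (1.81) and mt:lrRNA (4.43). Of the tRNA genes with the largest falls, mt:tRNA:Ser-TGA differed by -2.33, mt:tRNA:His-GTG and mt:tRNA:Glu-TTC by -0.48 each and mt:tRNA:Met-CAT by -0.33. Other tRNA genes that were called lower in the pooled fit were higher in the old library of this pair, mt:tRNA:Gly-TCC by 0.39, mt:tRNA:Ser-GCT by 0.27, mt:tRNA:Ile-GAT by 0.16 and mt:tRNA:Arg-TCG by 0.07. So were 3 that had not been called, mt:tRNA:Gln-TTG by 2.17, mt:tRNA:Val-TAC by 1.21 and mt:tRNA:Asp-GTC by 0.80. Old ablated flies differed from young ones in every flight muscle gene of the list: 13 of 13 were called lower, and the summed level was 2700.3 to 5947 CPM in young and 854 to 1013 CPM in old libraries. The part of this difference in the mitochondrial values was not tested.

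In young flies, 6 of 13 mitochondrial mRNAs were higher in ablated than in wild-type libraries. Of all genes tested, 33.0% were called between ablated and wild-type young flies, 18.2% higher and 14.8% lower in ablated flies. Of the tRNA genes 5 of 21 were called, and they were higher in ablated flies too. With both directions counted, the mitochondrial genes were called about as often as all genes tested, but those called were all higher. Neither rRNA gene was called by edgeR or DESeq2, and neither had an unadjusted p under 0.05. For mt:CoI the 7 ablated libraries had 9493, 8646, 13559, 14301, 9328 and 11699.8 CPM from 0 h to 8 h and 11063 CPM in the library labelled control, against 5673 to 9066 CPM in wild type. The library of 1 h lay inside the wild-type range and the others above it, and the fitted difference was 0.57 ± 0.09 (edgeR adjusted p = 8.27e-06). The largest differences among the protein genes were those of mt:ND4L (0.63 ± 0.25), mt:Cyt-b (0.59 ± 0.16), mt:CoI and mt:CoII (0.49 ± 0.07).

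Of the tRNA genes, mt:tRNA:Ser-TGA (1.57 ± 0.40), mt:tRNA:Asn-GTT (0.71 ± 0.20), mt:tRNA:Ala-TGC (0.71 ± 0.16) and mt:tRNA:Cys-GCA (0.60 ± 0.21) led the rises in young ablated flies. The level of mt:tRNA:Ser-TGA was low, at 0.282 to 7.67 CPM over all 40 libraries with a median of 1.11 CPM. Its highest value was that of ablated young climbers at 8 h. The rRNA genes differed by -0.12 ± 0.50 (mt:lrRNA) and -0.04 ± 0.50 (mt:srRNA). With only the 0 h and 1 h libraries of ablated young flies, 5 mitochondrial genes were called, among 17.0% of all genes. They were mt:CoI, mt:CoII, mt:ND4L, mt:tRNA:Ala-TGC and mt:tRNA:Asn-GTT. Leaving out the library labelled ablated young control, or the 0 h libraries, left 6 called, and mt:ND4L was then not among them. The share of all genes called was 26.7% without that control and is not given here for the fit without the 0 h libraries. No pair of the same hour was in 1 batch, and with batch as a covariate 0 were called by edgeR, with 7 at an unadjusted p under 0.05, among 1.57% of all genes called. Without both doubtful libraries 8 were called, among 23.4% of all genes. Flight muscle genes were higher too, 9 of 13 being called, and their part in the result was not tested.

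In old flies, 8 of 13 protein genes were higher in ablated libraries, and 8 of 21 tRNA genes and 1 of 2 rRNA genes were lower. Between ablated and wild-type old flies 56.9% of all genes tested were called, 29.9% higher and 27.0% lower. No protein gene was called lower and no tRNA gene higher. For mt:CoI all 7 ablated old libraries (5793 to 8692 CPM) were above all 13 wild-type old libraries (4004 to 5087 CPM), and mt:CoII was likewise wholly higher, as were 9.21% of all genes tested. The fitted differences were 0.68 ± 0.09 for mt:CoI, 0.73 ± 0.16 for mt:Cyt-b, 0.72 ± 0.29 for mt:ATPase8 and 0.66 ± 0.15 for mt:ND1, of complex I.

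The tRNA genes with the largest falls in old ablated against old wild-type flies were mt:tRNA:Ile-GAT at -1.91 ± 0.27, mt:tRNA:Tyr-GTA at -1.69 ± 0.26, mt:tRNA:Phe-GAA at -1.37 ± 0.34 and mt:tRNA:Val-TAC at -1.22 ± 0.35. The level of mt:tRNA:Ile-GAT was 1.12, 1.72, 2.17, 2.95, 2.701 and 3.94 CPM over the 6 hours in ablated old climbers, and each was below the wild-type old climbers of the same hour. Ablated young climbers had 1.90, 2.45, 2.42, 4.30, 2.51 and 3.44 CPM, and the controls 4.35 CPM (labelled ablated young) and 0.710 CPM (ablated old). For mt:tRNA:Tyr-GTA the values were 0.852, 2.58, 2.36, 4.76, 4.83 and 7.73 CPM in ablated old climbers against 6.21, 9.38, 6.42, 13.4, 14.1 and 16.7 CPM in wild-type old climbers. Both were lower in 7 of 7 matched pairs. The fall of mt:srRNA was -1.33 ± 0.51 (edgeR adjusted p = 0.028) and mt:lrRNA differed by -0.42 ± 0.50. Small nucleolar RNAs were also lower, with a summed level of 132 to 164 CPM in ablated old and 201 to 309.6 CPM in wild-type old libraries, and 39 of 118 tested were called lower. Their part in the tRNA differences was not tested. The flight muscle genes had a summed level of 854 to 1013 CPM in ablated old and 1213 to 5260.3 CPM in wild-type old libraries. They were thus lower in ablated old flies, where the called protein genes were higher, and their part was not tested either. No pair of the same hour was in 1 batch, and with batch as a covariate, mt:CoIII and mt:ND4 were the only mitochondrial genes called, both higher.

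**Figure D4:**
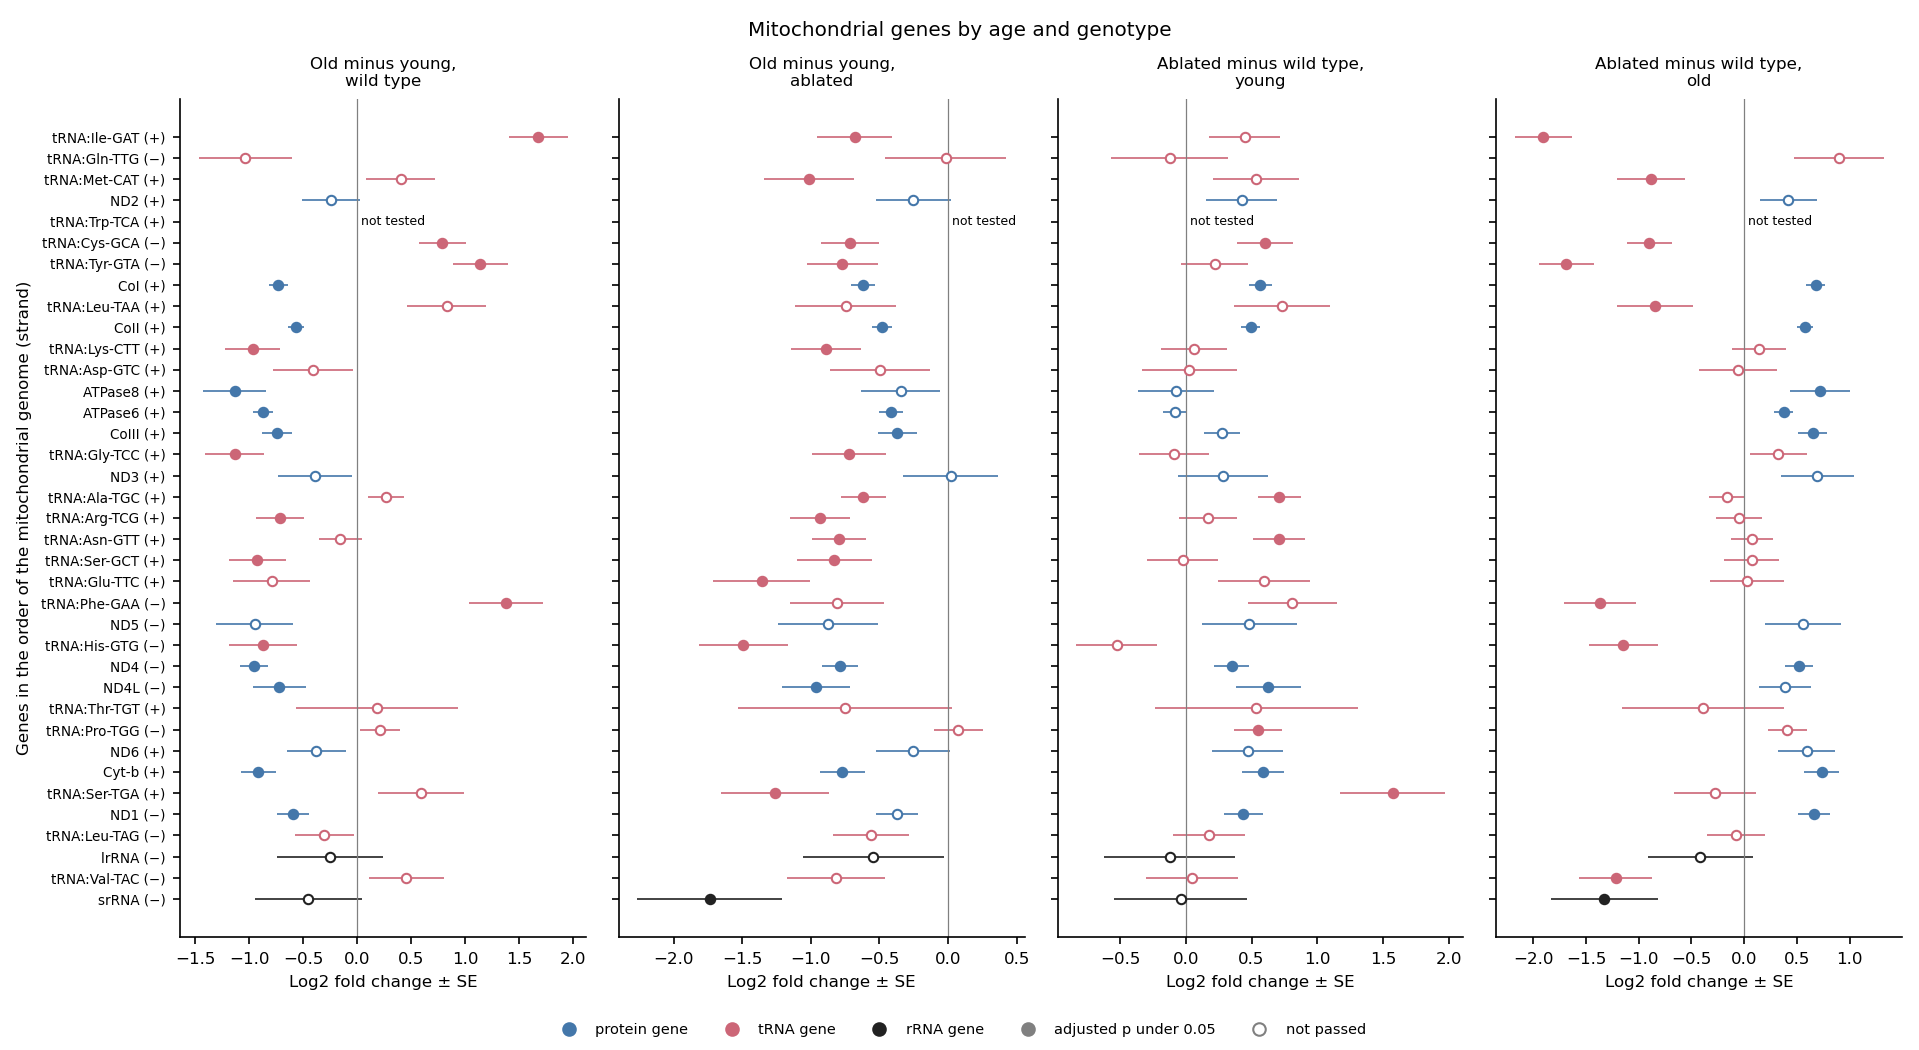
Fitted log2 fold change with its standard error for each mitochondrial gene in genome order, for age in wild-type and in ablated flies and for ablation in young and in old flies. Filled points passed an adjusted p of 0.05. The protein genes called in the fit shown were lower in old flies of both genotypes. With batch as a covariate, the 1 protein gene called by age in ablated flies was higher in old flies. The change of mt:tRNA:Ile-GAT with age was 1.68 in wild type and -0.68 in ablated flies, where the value was 0.17 with batch as a covariate.

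The effect of age itself differed between the genotypes in 10 mitochondrial genes, 1 protein gene and 9 of 21 tRNA genes, where 36.4% of all genes tested were called for this difference, 15.5% higher and 20.8% lower. The tRNA genes all changed less upward or more downward with age in ablated flies. The largest differences were those of mt:tRNA:Ile-GAT at -2.36 ± 0.38, mt:tRNA:Phe-GAA at -2.18 ± 0.48, mt:tRNA:Tyr-GTA at -1.91 ± 0.36 and mt:tRNA:Ser-TGA at -1.85 ± 0.56. In wild type, mt:tRNA:Phe-GAA was at 1.18 to 4.19 CPM in young and 1.12 to 15.3 CPM in old libraries, with medians of 2.04 and 6.61 CPM. In ablated libraries it was 1.83 to 5.08 CPM in young and 0.652 to 3.48 CPM in old flies, with medians of 3.95 and 2.74 CPM. The protein gene was mt:ATPase6, whose fall with age was -0.87 ± 0.09 in wild type and -0.41 ± 0.09 in ablated flies, a difference of 0.46 ± 0.12 (edgeR adjusted p = 0.0044). Without both doubtful libraries 13 mitochondrial genes were called, among 39.4% of all genes. The rRNA genes differed by -1.29 ± 0.72 (mt:srRNA) and -0.29 ± 0.71 (mt:lrRNA). A fit with batch as a covariate called 1 mitochondrial gene, mt:CoIII at 1.39 ± 0.30 (edgeR adjusted p = 0.012), among 2.22% of all genes, and mt:tRNA:Val-TAC turned to 0.59 ± 0.92 in it.

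Nuclear genes that serve the mitochondrial genome or its products are given beside these values. Of all genes tested, 11.7% were lower with age in wild type, 15.7% higher and 21.3% lower with age in ablated flies, and in ablated against wild-type flies 18.2% were higher when young and 29.9% when old. Of 71 tested nuclear genes of oxidative phosphorylation, 63 were lower and 1 was higher in old wild-type flies, 64 were lower in old ablated flies, 63 were higher in ablated young flies, and 59 were higher and 3 lower in ablated old flies. Of 72 tested genes of mitochondrial ribosomal proteins, 38 were lower with age in wild type, whereas 11 were higher and 1 was lower with age in ablated flies, 17 were higher and 1 was lower in ablated young flies, and 67 were higher and 2 lower in ablated old flies. Among 22 tested genes for transcription, processing, stability and replication of the mitochondrial genome, 5 were lower in old wild-type flies and 2 were higher in ablated young flies. The lower ones included TFAM, which packages mitochondrial DNA (-0.27 ± 0.06), mtTFB2, a transcription factor (-0.47 ± 0.12), and scu, a subunit of mitochondrial RNase P (-0.22 ± 0.07). With age in ablated flies 5 of the 22 were higher and none was lower, namely PolG1, the mitochondrial DNA polymerase (0.42 ± 0.12), mtDNA-helicase (0.41 ± 0.11), RNaseZ, which cuts the 3' ends of tRNAs (0.36 ± 0.12), CG2100 (0.26 ± 0.08) and MTPAP, a poly(A) polymerase (0.24 ± 0.08). In ablated old flies 11 of the 22 were higher than in wild type, among them TFAM (0.50 ± 0.06), scu (0.46 ± 0.07) and bsf, an RNA-binding protein that stabilises mitochondrial mRNA (0.30 ± 0.07).

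Few genes of these lists were called over the hours. From 0 h to 8 h, none of the 22 genes of mitochondrial RNA and genome was called by edgeR or DESeq2 (5 had an unadjusted p under 0.05) and their median log2 fold change was -0.10. None of 15 mitochondrial tRNA synthetases, which load tRNAs with amino acids, was called by either tool, and 1 had an unadjusted p under 0.05. Of the nuclear oxidative phosphorylation genes, 2 of 71 were lower at 8 h, and of the ribosomal proteins 2 of 72. The share of all genes called between these hours was 10.5%. At 4 h against control, none of these lists held a called gene in edgeR or DESeq2. As edgeR called only 0.769% of all genes there, the lack of calls in lists of this size tells little. Of the 22 genes 2 had an unadjusted p under 0.05, as did 4 of 15 synthetases, 6 of 72 ribosomal proteins and 2 of 71 oxidative phosphorylation genes. The share of all genes under that unadjusted p is not given here.

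Non-climbers and climbers were compared in 12 pairs of the same age and hour in wild-type flies. By edgeR 0 of the 36 mitochondrial genes and 0% of all 11449 genes were called, 3 mitochondrial genes having an unadjusted p under 0.05, and DESeq2 called none of the 36 as well. The 3 were mt:tRNA:Asn-GTT (0.35 ± 0.15), mt:tRNA:Arg-TCG (0.37 ± 0.16) and mt:tRNA:Ile-GAT (0.41 ± 0.19). The level of mt:tRNA:Arg-TCG was the higher in non-climbers in 12 of 12 pairs, by 0.07 to 0.82 on the log2 scale with a median of 0.23. It was the only mitochondrial gene with the same direction in all pairs, and the share of all genes with such a pattern is not given here. The libraries of the old pair at 1 h were in different batches. In a fit with the pairs as a block, mt:tRNA:Arg-TCG was the 1 mitochondrial gene called, at 0.31 ± 0.05 (edgeR adjusted p = 0.012), among 0.0177% of all genes. The protein genes with the smallest p differed by no more than 0.17 on the log2 scale, and mt:lrRNA and mt:srRNA differed by -0.31 ± 0.37 and 0.07 ± 0.37.

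Whether the course over hours differed between groups was tested as a slope on the log2 of the hour plus 1. Between old and young wild-type flies 0.0457% of 10950 genes were called for a difference in slope, 0.00913% higher and 0.0365% lower in old flies, and, by edgeR, 0 of the 36 mitochondrial genes. Of these, 6 had an unadjusted p under 0.05, and DESeq2 called 1, a protein gene. The protein gene with the smallest p was mt:CoI, at -0.14 ± 0.04 per unit, with an edgeR adjusted p of 0.21. All 13 protein genes had a negative difference in slope (old minus young). Their levels vary together, so these signs are not independent, and the share of all genes with that sign is not given here. Hours carried different batches in young and old flies, and no slope fit held batch as a covariate. Between ablated and wild-type climbers 2.16% of 11467 genes were called, 0.863% higher and 1.30% lower in ablated flies, with 0 of 36 mitochondrial genes by edgeR, where 5 tRNA genes had an unadjusted p under 0.05, and 3 tRNA genes by DESeq2. The smallest p was that of mt:tRNA:Ile-GAT at -0.49 ± 0.15 per unit, with an edgeR adjusted p of 0.068.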

How the data were processed

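The authors deposited 1 table of raw counts per gene for 40 libraries of whole flies, and reads were aligned with STAR 2.7.5a to the dm6 build, per the submitters' processing notes. Only read 1 was used, per the labels. How reads were counted (tool, annotation, strand, molecular identifiers) is not given in the sources used here. Positions came from the Ensembl annotation of BDGP6 (dm6), and no genome sequence was used.

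Library sizes were scaled by TMM. The quasi-likelihood test of edgeR 4.0.16 (R 4.3.3, filterByExpr, robust) was fitted over all 40 libraries, with Benjamini-Hochberg adjustment over all genes tested and a threshold of 0.05, for 11 comparisons. The slopes were fitted in 24 libraries each. Differences of matched pairs are in log2(CPM + 1). DESeq2 1.42.0, RLE factors, scaling without mitochondrial genes, no count filter, batch as a covariate, fits without doubtful libraries and leaving out each control, hour or batch were the alternatives. The code was tested on simulated data.

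Named per comparison were both rRNA genes and, of the tRNA and of the protein genes, the called genes that rose most and those that fell most, up to 4 each way, or the 2 with the smallest p where none was called. Levels were given by library for the 6 genes called in most comparisons and mt:srRNA, and by library or as the range of a group for mt:lrRNA and mt:CoI. Other genes named, such as mt:tRNA:Leu-TAG from 0 h to 8 h, were chosen after their values were seen. Members and lists were chosen with earlier results of these data known.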

Additional observations from a re-analysis of the deposited data

Results flagged for a closer look

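For 10 mitochondrial genes the effect of age differed between wild-type and ablated flies by an edgeR interaction contrast at an adjusted p under 0.05. The difference, as the log2 change with age in ablated minus that in wild-type flies, was -2.36 for mt:tRNA:Ile-GAT, -2.18 for mt:tRNA:Phe-GAA, -1.91 for mt:tRNA:Tyr-GTA and -1.85 for mt:tRNA:Ser-TGA. It was -1.57 for mt:tRNA:Leu-TAA, -1.50 for mt:tRNA:Cys-GCA, -1.42 for mt:tRNA:Met-CAT, -1.27 for mt:tRNA:Val-TAC and -0.88 for mt:tRNA:Ala-TGC. For mt:ATPase6 it was 0.46. Of all genes tested, 36.4% passed the same contrast, a larger share than among the mitochondrial genes. A fit with batch as a covariate called mt:CoIII (1.39) and none of these 10.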

How the results depend on the processing

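Of 57 named values that passed the threshold, 966 of 1168 alternative values kept the call, 192 lost it and 10 turned in sign. Of 34 that did not pass, 12 alternative values did, and 3 of mt:lrRNA turned in sign, 13 in all. Of the alternative counts of called mitochondrial genes, 158 stayed within 1.5 times the reported count and 38 did not. For 4 h against control (8), the count was 3 with every gene that had any count, 18 without both doubtful libraries and 13 in DESeq2. For 0 h against control (4) it was 10 and 7 in the last 2 of these. With batch as a covariate it was 1 for age in wild type (18), 4 for age in ablated flies (21), 0 for ablation in young flies (11), 2 for ablation in old flies (17) and 1 for the age effect between genotypes (10). With only 0 h and 1 h of ablated young flies it was 5, among 17.0% of all genes. DESeq2 called 1 gene for the slope between ages and 3 for that between genotypes, where edgeR called 0.

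Leaving out 1 control, hour or batch at a time gave 0 to 21 for 4 h against control, 3 to 10 for 0 h against control, 10 to 17 for 8 h against 0 h and 0 to 0 for climbing. It gave 6 to 20 for age in wild type (lowest without batch 3, and 8 without batch 1) and 6 to 25 for age in ablated flies (lowest without batch 4). The counts were 4 to 12 for ablation in young flies (lowest without batch 1, and 5 without batch 2), 10 to 17 for ablation in old flies and 4 to 12 for the age effect between genotypes (both lowest without batch 3). For 4 h against control the count was 0 without batch 2, 3 or 5 and 21 without batch 4, and for 0 h it was 10 without batch 4.

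Values turned in sign with batch as a covariate for age in ablated flies (mt:lrRNA 3.81, mt:srRNA 1.37, mt:ND4L 0.36), for ablation in young flies (mt:tRNA:Ala-TGC -0.022, mt:tRNA:Cys-GCA -0.27) and for ablation in old flies (mt:srRNA 2.75, mt:tRNA:Val-TAC 1.27). They also turned when batch 4 was left out, which leaves 1 young ablated library. Over all such omissions, age in ablated flies gave -1.07 to 3.80 for mt:lrRNA, -2.17 to 1.40 for mt:srRNA and -1.19 to 0.33 for mt:ND4L. Ablation in young flies gave -0.74 to 0.88 for mt:ND4L and -0.033 to 0.67 for mt:Cyt-b, and the age effect between genotypes gave -0.90 to 3.95 for mt:lrRNA. The cause was not tested. The labels share no replicate numbers. With the 12 pairs of climbers and non-climbers as a replicate block, 1 mitochondrial gene was called. Arrangement of batches and single libraries per condition limit all comparisons. Low counts limit mt:tRNA:Trp-TCA, and also mt:tRNA:Thr-TGT and mt:tRNA:Ser-TGA, with 416 and 1239 counts in all.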

Other observations

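The 5 nuclear genes whose log2 level followed the summed tRNA genes most closely over the 40 libraries were Fas1 (Pearson r = 0.71), Esp (0.70), Rpn5, a proteasome subunit (0.68), GstD2, a glutathione transferase (0.64) and Dip-B (0.63). These values describe libraries that share hours, batches, genotype and age.

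The ratio of the rRNA genes to each other varied between libraries. The mt:srRNA level was 73.4 CPM in the ablated old control beside 22829 CPM of mt:lrRNA, and 1061 CPM in ablated young climbers at 8 h beside 4323 CPM of mt:lrRNA.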
